A study of Mus musculus with 38 samples.

Results

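The 39 genes described here make up the machinery of DNA replication and cell division, and comprised 19 replication genes and 20 mitosis genes. They were taken from a list of symbols, matched to the Ensembl gene identifiers of the count tables. All 39 were found among 55416 gene rows, of which 52083 had a symbol. All 39 passed the filter on low counts in every set.

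A dividing cell first loads the MCM helicase onto replication origins, then copies its DNA in S phase, and afterwards condenses and separates its chromosomes in mitosis. Many S phase genes are transcribed through E2F factors, and many mitosis genes later in the cycle through a complex that includes the MYBL2 and FOXM1 proteins. In the intestine most dividing cells lie in the crypts, where stem cells and their fast-dividing daughters renew the epithelium, and germinal centres of the gut's lymphoid tissue divide as well. Levels of these transcripts are widely used as a measure of proliferation.

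The data were messenger RNA counts of mouse intestinal tract in 3 sets of libraries, from a study of black rice feeding in mice with colorectal cancer. In the set named Apc, after the tumour suppressor gene, black rice, control diet and WT arms had 3 libraries each coded F and 3 coded M. Black rice and control arms of the set named AOM were also coded F and M, with 3 libraries a group, and 1 black rice F library of that set was left out. The third set, with no F or M code, had 4 black rice and 4 control libraries by their treatment labels. The name of its table holds the letters FMT, which no label explains, so how these mice received the treatment is not known here. The labels give the control group the treatment word control and the WT group none. They give no strain, allele, dose, age or feeding time, so what the Apc and AOM mice share beside their diet is not described here, and they do not say whether libraries came from separate animals. The p-values therefore measure only the spread between these libraries, which may be technical.

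Depth was 44.8 to 61.9 M reads in the Apc set (18 libraries), 37.9 to 55.1 M in the AOM set (11 libraries used) and 66.6 to 91.1 M in the third set (8 libraries). The lowest count of any member in a library used was 63 reads, for Bub1 in the AOM set. Markers of epithelium were present in every library used, with summed levels of 8330 to 16400 counts per M reads (CPM) over 10 genes. The left-out library had 5.37 M reads counted in genes, and 23.5% of them came from 10 hepatocyte genes, against at most 0.019% in any other library.

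The promoters of the 2 classes differ in their letters, and 7 of them are shown because the report sets these classes beside each other. Promoters of 300 bases, 250 before and 50 after the start, were found in the RefSeq table of GRCm38.p6 for 15 of 19 replication genes and 15 of 20 mitosis genes. Each sequence below is the 160 bases before the start, 5′ to 3′ on the gene's strand, with matches in capitals. The E2F letters searched were TTTGGCGC, TTTGCCGC, TTTCGCGC and TTTCCCGC, the CHR letters (the cell cycle genes homology region of mitosis genes) TTTGAA, and the NF-Y letters CCAAT, all on both strands, so that a match on the other strand reads as its reverse complement and overlapping matches run together. The first 3 are replication genes, the helicase subunits Mcm5 (chr8:75109349-75109508, plus strand) and Mcm6 (chr1:128359706-128359865, minus strand) and the origin licensing factor Cdc6 (chr11:98907991-98908150, plus strand).
Mcm5: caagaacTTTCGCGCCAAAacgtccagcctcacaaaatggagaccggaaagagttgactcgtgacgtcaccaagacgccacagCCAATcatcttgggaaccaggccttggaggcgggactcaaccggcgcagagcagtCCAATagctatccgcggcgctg
Mcm6: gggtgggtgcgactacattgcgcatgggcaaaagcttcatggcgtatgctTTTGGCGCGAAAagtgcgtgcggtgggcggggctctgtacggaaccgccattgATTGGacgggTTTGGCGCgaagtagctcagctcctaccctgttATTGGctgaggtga
Cdc6: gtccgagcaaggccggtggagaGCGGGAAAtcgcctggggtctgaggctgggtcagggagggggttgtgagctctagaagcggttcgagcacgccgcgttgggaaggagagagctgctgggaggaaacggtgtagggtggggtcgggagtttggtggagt
The next 3 are mitosis genes, the chromosome surface protein Mki67 (chr7:135716380-135716539, minus strand), the anaphase activator Cdc20 (chr4:118437344-118437503, minus strand) and the spindle motor Kif11 (chr19:37376222-37376381, plus strand).
Mki67: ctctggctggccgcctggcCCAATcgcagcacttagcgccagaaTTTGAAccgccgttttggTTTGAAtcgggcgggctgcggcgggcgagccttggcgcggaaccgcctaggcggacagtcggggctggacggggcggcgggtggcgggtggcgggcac
Cdc20: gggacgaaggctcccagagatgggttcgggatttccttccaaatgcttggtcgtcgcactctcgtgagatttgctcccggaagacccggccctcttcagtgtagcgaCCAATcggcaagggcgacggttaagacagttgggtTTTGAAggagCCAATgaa
Kif11: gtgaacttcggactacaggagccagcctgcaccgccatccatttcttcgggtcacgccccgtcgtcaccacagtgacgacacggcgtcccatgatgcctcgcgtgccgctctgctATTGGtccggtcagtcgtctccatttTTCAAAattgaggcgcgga
The last is Cdk1 (chr10:69352913-69353072, minus strand), the kinase that drives entry into mitosis, which held letters of all 3 kinds.
Cdk1: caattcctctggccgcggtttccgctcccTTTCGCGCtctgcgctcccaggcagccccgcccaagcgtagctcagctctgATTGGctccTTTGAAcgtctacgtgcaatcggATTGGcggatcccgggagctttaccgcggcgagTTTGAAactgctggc

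Matches over the 300 bases were counted by gene, where any promoter of a gene could hold them. E2F letters were held by 7 of 15 replication genes (46.7%), 1 of 15 mitosis genes (6.67%), Cdk1, and 2.6% of 27025 mouse genes. CHR letters had the opposite pattern, with 10 of 15 mitosis genes (66.7%), 1 of 15 replication genes (6.67%), Mcm2, and 20.2% of all genes. The CCAAT letters were common to both classes, at 86.7% of mitosis and 60% of replication genes, against 41.1% of all. The same 10 mitosis genes held both CHR and CCAAT letters, which 8.97% of all genes did, though not always in the same promoter. A match describes the letters only.

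All 39 members were expressed in every set. Levels were scaled by the length of all annotated exons of a gene together, so their order depends in part on the annotation. On this scale the sliding clamp Pcna was the most abundant, with a median of 36 CPM per kb over the Apc libraries. The mitotic kinase Plk1 followed at 29.1. Mki67 stood at 15.6 and the mitotic cyclin Ccnb2 at 14 on this scale. The lowest were the polymerase subunit Pole at 1.17, Cdc6 at 1.22, Mybl2 at 1.4 and the kinetochore motor Cenpe at 1.75. Exons of another gene cover 67.3% of the Gins2 exons, 29.3% of Kif20a and 17.4% of Ccne2, and no strand option is recorded for the counting. Counts of these genes may thus have gained or lost reads in the shared stretches, which was not tested.

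Members varied widely between libraries, and the extremes of most members fell in the same few libraries. In the Apc set the fold between the highest and lowest library ran from 1.86 for the thymidine kinase Tk1 to 5.54 for the cyclin Ccnb1, in the AOM set from 1.54 for Tk1 to 9.40 for the spindle motor Kif20a, and in the third set from 1.30 for the helicase subunit Mcm7 to 2.83 for Kif20a.  WT F replicate 2 of the Apc set was highest in 27 of 39 members, and black rice F replicate 3 lowest in 24. In the AOM set black rice M replicate 2 was lowest in 36 members, while black rice F replicate 1 was highest in 20 and control M replicate 3 in 16. Control replicate 2 of the third set was lowest in 25. The mean log2(CPM + 0.1) of the replication genes spanned 3.77 to 5.12 over the Apc libraries, a 2.54-fold range, and that of the mitosis genes 3.50 to 5.29, a 3.44-fold range. In the AOM set the ranges were 2.81-fold for replication and 4.42-fold for mitosis genes, and in the third set 1.38-fold and 1.71-fold.

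**Figure D1:**
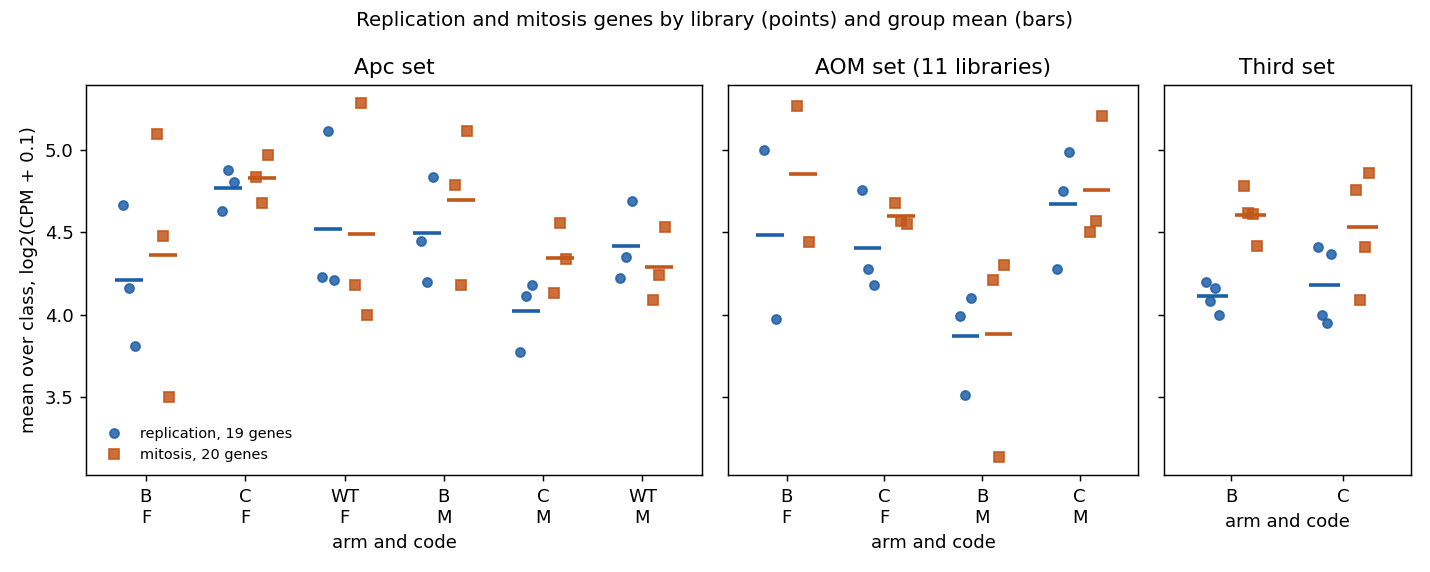
Mean log2(CPM + 0.1) of the replication genes (circles) and the mitosis genes (squares) in each library used, with group means as bars, by arm and code on the x axis, for the 3 sets. Most groups of the Apc and AOM sets overlap with others, and the third set spans a narrower range, 3.95 to 4.41 for replication and 4.09 to 4.86 for mitosis genes.

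Whether black rice feeding went with more or less division was asked first in the Apc set with both codes together. No clear direction appeared. Of the replication genes 10 of 19 lay higher with black rice, with a median log2 difference of 0.00, and of the mitosis genes 12 of 20, with a median of 0.01. The median of all genes tested was -0.01. None of the 39 passed an adjusted p of 0.05 in edgeR's quasi-likelihood test with Benjamini-Hochberg adjustment, where 3 of 21624 genes (0.0139%) did. In bulk tissue fewer dividing cells and less RNA per dividing cell cannot be told apart. The members with the smallest p were Ccne2, a cyclin of S phase entry, at 0.52 ± 0.19 (SE; adjusted p = 0.40), the licensing factor Cdt1 at -0.27 ± 0.13 (adjusted p = 0.48), Ccnb2 at -0.34 ± 0.31 and Plk1 at 0.17 ± 0.16. Mcm2 differed by -0.14 ± 0.19 and Mki67 by 0.22 ± 0.27.

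Behind that median near 0, the 2 codes lay in opposite directions. In F libraries of the Apc set, 18 of 19 replication genes and 17 of 20 mitosis genes lay lower with black rice, with medians of -0.58 (0.67 of the control level) and -0.41 (0.751 of it). In all genes tested 50.5% lay higher. None passed the adjusted threshold in edgeR, limma-voom or DESeq2, and no other gene did in edgeR (0% of 21624). Without black rice F replicate 3 the medians were -0.35 and -0.09, and without replicate 1 they were -0.82 and -0.83. At an unadjusted p under 0.05, 7 replication genes and 0 mitosis genes were lower, against 5.73% of all genes. The groups did not overlap, with black rice lower, in 9 replication and 2 mitosis genes, against 10% of all genes.

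Mcm2, a subunit of the replicative helicase, stood at 32.1, 22 and 20 CPM in the black rice F libraries and at 34.2, 45.5 and 48.2 CPM in the control F libraries. Every black rice value lay below every control value, and the log2 difference was -0.79 ± 0.27 (adjusted p = 0.39). Mcm3, another helicase subunit, stood at 26.5, 20.2 and 15.3 CPM with black rice and at 35.1, 36.2 and 36.6 CPM in controls (-0.80 ± 0.27, adjusted p = 0.39). Its control values were nearly equal. Cdt1, which brings the helicase to origins, had the smallest p of the class, with 10.4, 11.1 and 9.67 CPM against 13.7, 15.5 and 17 CPM (-0.58 ± 0.18, adjusted p = 0.36). Ccne1, a cyclin of S phase entry, stood at 8.53, 6.1 and 4.41 CPM with black rice and at 9.62, 12.7 and 9.35 CPM in controls (-0.74 ± 0.30, adjusted p = 0.43). Rrm2, the regulated subunit of ribonucleotide reductase, which makes the deoxynucleotides, stood at 20.3, 13.8 and 6.42 CPM against 26.1, 21.6 and 21.5 CPM (-0.78 ± 0.40, adjusted p = 0.51). In each of these genes the groups did not overlap.

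Mitosis genes were less separated in the same libraries. Mki67 stood at 334, 166 and 114 CPM in black rice F libraries and at 170, 166 and 261 CPM in control F libraries, a log2 difference of 0.05. The highest and the lowest value both belonged to the black rice group. The mitotic cyclin Ccnb2 (-0.69, adjusted p = 0.62) and the transcription factor Mybl2 (-0.55, adjusted p = 0.61) had the smallest p of the class. The DNA topoisomerase Top2a differed by -0.03, Ccnb1 by -0.31, Cdk1 by -0.41 and Foxm1 by -0.38. Among replication genes the clamp Pcna differed by -0.27 and the S phase transcription factor E2f1 by -0.63. Ccne2 (0.17) and Cenpe (0.39) lay on the other side.

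Markers of other cells also differed in these F libraries. B cell and germinal centre markers were lower with black rice in 10 of 10 genes (median log2 difference -1.97), with summed levels of 17 to 138 CPM against 51.7 to 403 CPM. T cell markers were lower in 10 of 10 (median -0.96). Smooth muscle markers were higher in 10 of 10 (median 0.51), with 4480 to 6690 CPM against 3350 to 3560 CPM. Red cell markers were higher in 5 of 5 (median 0.61), hepatocyte markers in 10 of 10 (median 0.43) and mature colonocyte markers in 5 of 8 (median 0.45), while epithelium markers were lower in 9 of 10 (median -0.17). The 10 crypt base and stem cell markers had a median of 0.02. No marker of these lists was at 0, and their part in the differences of the cell cycle genes was not tested.

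In M libraries of the Apc set all 19 replication genes and all 20 mitosis genes lay higher with black rice, from 0.01 to 0.87, with medians of 0.57 (1.49 times the control level) and 0.43 (1.35 times). In all genes 48.3% lay higher. Without black rice M replicate 3 the mitosis median was 0.26, and without control M replicate 2 it was 0.66. None of the 39 passed the adjusted threshold, which 7 of 21624 genes (0.0324%) did. At an unadjusted p under 0.05, 5 replication genes and 1 mitosis gene were higher, against 3.67% of all genes. Groups did not overlap in 8 replication genes and 0 mitosis genes, against 4.82% of all genes.

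Ccne2 stood at 14.3, 11.5 and 18.2 CPM in black rice M libraries and at 7.64, 7.68 and 9.52 CPM in control M libraries (0.87 ± 0.28, adjusted p = 0.40). Ccne1, the other cyclin E, stood at 7.3, 7.08 and 10.6 CPM against 4.04, 5.59 and 5.68 CPM (0.74 ± 0.30, adjusted p = 0.51). Both cyclins were thus separated between the groups. Rrm2 stood at 16.5, 11.5 and 26.9 CPM against 10, 11.2 and 10.6 CPM (0.82, adjusted p = 0.60). Mcm2 stood at 30.3, 28.2 and 42.6 CPM against 17.1, 27.7 and 27.6 CPM (0.51). E2f1 differed by 0.75 (adjusted p = 0.57) and Pcna by 0.23. Replicate 3 was the highest black rice value in each of Ccne1, Ccne2, Rrm2 and Mcm2.

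Of the mitosis genes, Plk1 (0.53 ± 0.22, adjusted p = 0.53) and Foxm1 (0.71, adjusted p = 0.66) had the smallest p. Mki67 stood at 154, 127 and 236 CPM in black rice M libraries and at 121, 125 and 159 CPM in control M libraries, so the groups overlapped (0.39). Top2a differed by 0.67, Cdk1 by 0.42 and Ccnb1 by 0.28. In these libraries red cell markers were lower with black rice in 5 of 5 genes (median -1.44, summed 31.5 to 44.3 CPM against 59 to 136 CPM), all 5 without overlap, and hepatocyte markers in 10 of 10 (median -1.06, 52.7 to 82.1 CPM against 68 to 190 CPM). Of all genes 8.65% lay lower there without overlap. T cell markers were lower in 10 of 10 (median -0.76) and smooth muscle markers higher in 10 of 10 (median 0.49). Medians were -0.18 for epithelium, 0.15 for mature colonocyte, -0.12 for B cell and germinal centre and 0.01 for crypt markers. The part of these lists in the differences was not tested.

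**Figure D2:**
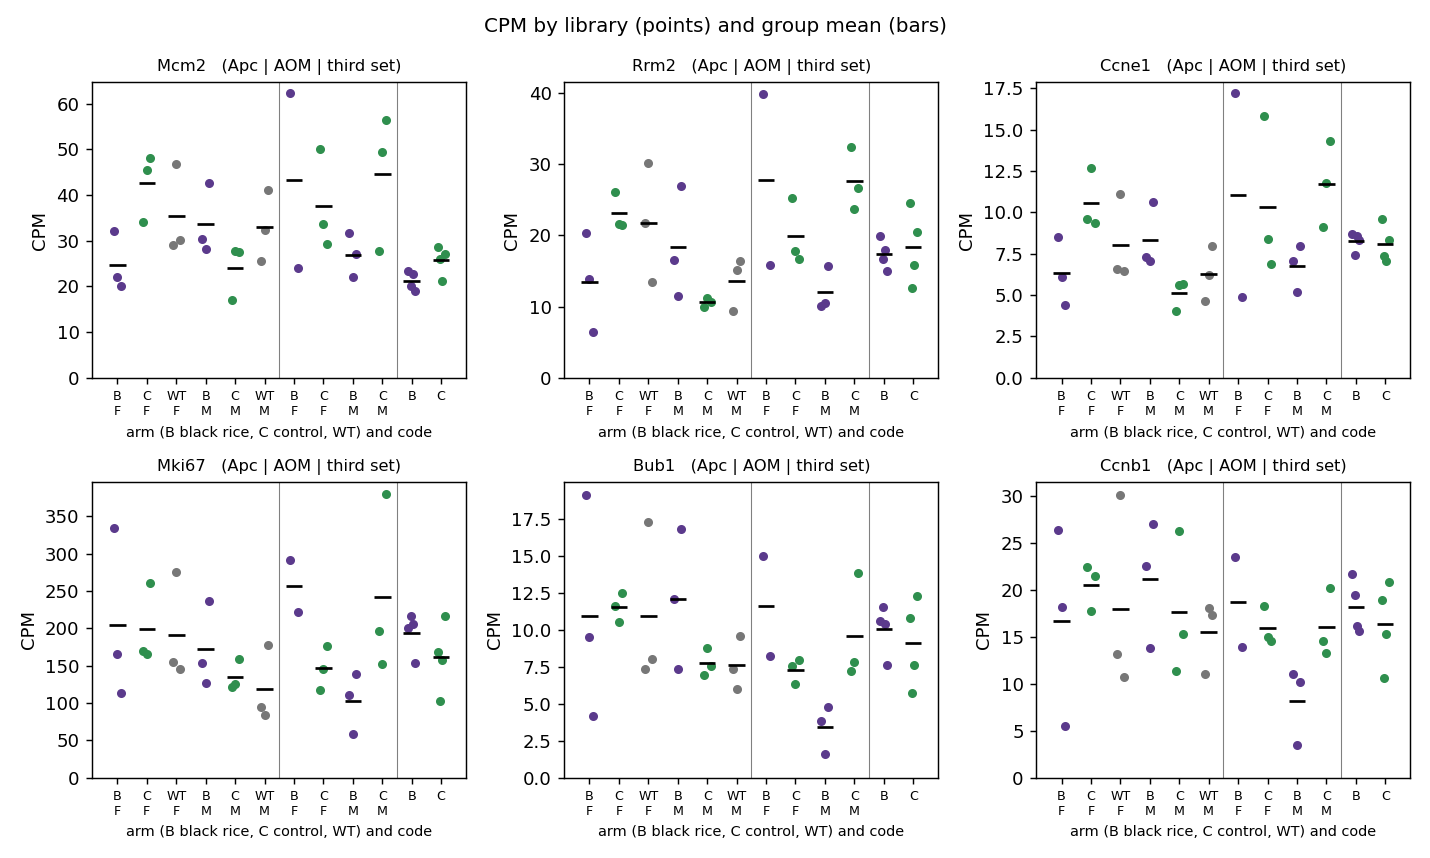
CPM (y axis, linear from 0) of 6 members in every library used (points) with group means (bars), by arm and code on the x axis, for Mcm2, Rrm2, Ccne1, Mki67, Bub1 and Ccnb1. In the Apc F libraries the black rice points of Mcm2 (20 to 32.1 CPM) lie below the control points (34.2 to 48.2 CPM), while those of Mki67 (114 to 334 and 166 to 261 CPM) overlap.

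The difference between the codes was tested directly as the F difference minus the M difference. It was below 0 in 38 of 39 members, with medians of -0.98 for replication and -0.79 for mitosis genes, and no member and no other gene passed (0% of 21624). Unadjusted p was under 0.05 on the lower side in 12 replication genes and 1 mitosis gene, against 4.58% of all genes. Mcm3 had a difference of -1.38 ± 0.38 (adjusted p = 0.39) and Ccne1 of -1.47 (adjusted p = 0.41). Plk1 (-0.71, adjusted p = 0.53) and Mybl2 (-1.03, adjusted p = 0.57) led the mitosis genes. Mcm2 differed by -1.30 and Mki67 by -0.34, and Cenpe was the member above 0, at 0.15. Whether the codes differed is thus not shown for any single member.

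**Figure D3:**
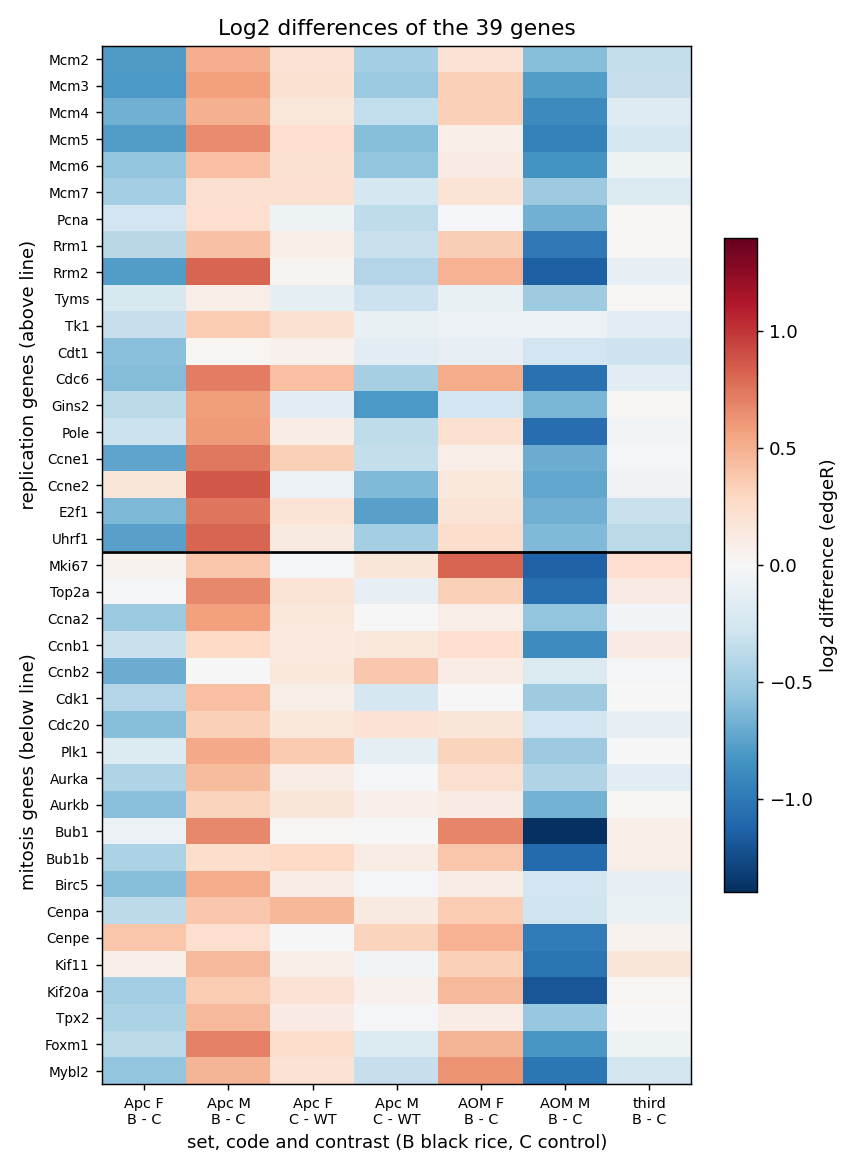
Heatmap of the log2 differences from edgeR, with 1 row for each of the 39 members and 1 column for each comparison (black rice minus control, B - C, or control minus WT, C - WT); red is higher, blue is lower, and the colour bar gives the scale. The medians of replication and mitosis genes lie at -0.58 and -0.41 in Apc F, at 0.57 and 0.43 in Apc M, at -0.70 and -0.74 in AOM M, and at -0.16 and -0.01 in the third set.

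WT libraries served as the background for both diets, and the control and black rice comparisons with WT share those libraries, as the diet comparison shares the control libraries. Against WT, replication and mitosis genes parted in the control arm. With both codes together 18 of 19 replication genes lay lower in controls (median -0.16) and 18 of 20 mitosis genes higher (median 0.08), and no gene passed (0%); no member reached an unadjusted p under 0.05. Without WT F replicate 2 these medians were 0.03 and 0.33. In M libraries all 19 replication genes lay lower in controls, with a median of -0.41, while 11 of 20 mitosis genes lay higher, with a median of 0.01, and again no gene passed (0%). Control and WT M libraries did not overlap, with controls lower, in 8 replication and 0 mitosis genes, against 2.46% of all genes. In F libraries both medians were above 0, at 0.16 and 0.15, with no gene past the threshold (0%), and they were 0.50 and 0.75 without WT F replicate 2, -0.02 for replication without WT F replicate 1 and -0.12 for mitosis without WT F replicate 3.

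The members with the smallest p in M libraries were Ccne2 (-0.62 ± 0.28) and E2f1 (-0.76 ± 0.35), and of the mitosis genes Mybl2 (-0.32) and Ccnb2 (0.38), each with an adjusted p of 1. E2f1 stood at 3.16, 4.46 and 5.1 CPM in control M libraries and at 5.97, 6.37 and 8.84 CPM in WT M libraries. Gins2, of the GINS complex that activates the helicase, differed by -0.80, Mcm3 by -0.52, Mcm2 by -0.48 and Pcna by -0.35. Mki67 (0.17) and Ccnb1 (0.16) were on the other side. Adjusted p was 1 for the members named with both codes together, which were Ccne2 (-0.35), Gins2 (-0.48), Cenpa (0.29) and Ccnb2 (0.26), where Cenpa is the histone of the centromere. In F libraries, also at an adjusted p of 1, they were Cdc6 (0.42), Ccne1 (0.33), Plk1 (0.37) and Cenpa (0.46).

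The balance of the classes gives the same view per library. Mean log2 of the replication genes minus that of the mitosis genes was 0.12, 0.11 and 0.16 in WT M libraries and -0.36, -0.44 and -0.16 in control M libraries, without overlap. Black rice M libraries stood at -0.34, 0.02 and -0.28. Over both codes the mean was 0.08 in WT, -0.19 in control and -0.18 in black rice libraries, and in F libraries the 3 arms overlapped. As a score over the members, this balance was not tested. Red cell markers were higher in control than in WT M libraries in 5 of 5 genes (median 2.45, summed 59 to 136 CPM against 7.88 to 38.2 CPM), all 5 without overlap, and hepatocyte markers in 9 of 10 (median 1.25), 7 of them without overlap. Of all genes 3.43% lay higher there without overlap. T cell markers were higher in 10 of 10 (median 0.52) and B cell and germinal centre markers in 9 of 10 (median 0.63), while smooth muscle markers were lower in 10 of 10 (median -0.29). Medians were -0.64 for mature colonocyte, -0.12 for crypt and -0.02 for epithelium markers, and the part of these lists was not tested.

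**Figure D4:**
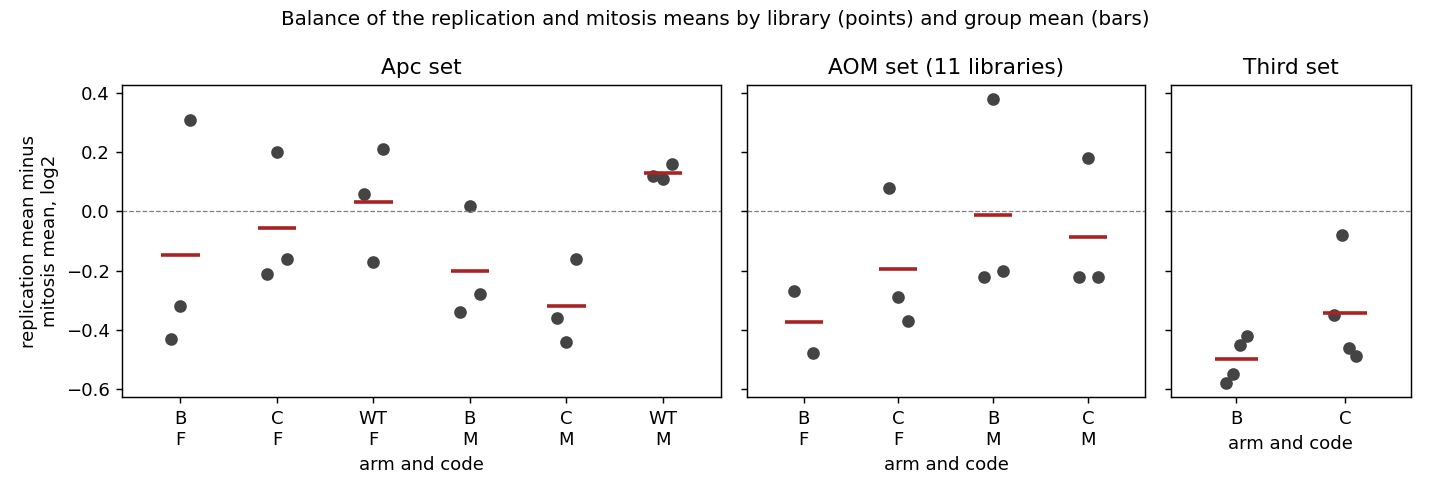
Mean log2(CPM + 0.1) of replication genes minus mitosis genes in each library used (points) with group means (bars), by arm and code on the x axis, where 0 marks equal means. WT M libraries lie between 0.11 and 0.16 and control M libraries between -0.44 and -0.16.

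Black rice against WT showed the same parting with both codes together, with medians of -0.17 for replication and 0.10 for mitosis genes, and 0 members among the 3 of 21624 genes that passed (0.0139%). Without WT F replicate 2 these medians were 0.02 and 0.43, and without black rice F replicate 1 they were -0.34 and -0.11, so either sign turned with 1 library. The smallest p belonged to Cdt1 (-0.33), the thymidylate synthase Tyms (-0.29), Plk1 (0.29) and Cenpe (0.46). In F libraries the medians were -0.41 and -0.23, with 0% of genes called. Without WT F replicate 2 they were 0.01 and 0.40. The leading members were Cdt1 (-0.52, adjusted p = 0.75), Mcm3 (-0.60), Ccnb2 (-0.54) and the chromosomal passenger Birc5 (-0.50). In M libraries the medians were 0.06 and 0.43, all 20 mitosis genes lay higher, and 2 genes (0.00925%), none a member, passed. There Ccne1 (0.40), Tk1 (0.26), Plk1 (0.39) and the spindle checkpoint kinase Bub1 (0.68) led, and Mki67 differed by 0.56 (adjusted p = 0.97). The replication median there was -0.11 without black rice M replicate 3. Red cell markers were higher with black rice than in WT in 5 of 5 genes in F (median 2.11) and in M libraries (median 0.71), and B cell and germinal centre markers had medians of -1.91 in F and 0.44 in M, whose part was not tested.

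In M libraries of the AOM set all 39 members lay lower with black rice, from -1.4 to -0.08, with medians of -0.70 for replication genes (0.617 of the control level) and -0.74 for mitosis genes (0.599 of it). The median of all genes was -0.07 and 45.4% of genes lay higher. No gene passed in edgeR (0% of 21895). At an unadjusted p under 0.05, 11 replication and 10 mitosis genes were lower, against 8.37% of all genes. DESeq2, run beside it, called 1 member, Bub1, at -1.37 (adjusted p = 0.036, the lowest over the alternatives, which reached 0.95). Without black rice M replicate 2 the medians were -0.55 and -0.43. Groups did not overlap, with black rice lower, in 13 replication and 10 mitosis genes, against 7.28% of all genes.

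Bub1 stood at 3.82, 1.61 and 4.77 CPM in black rice M libraries and at 7.17, 7.84 and 13.8 CPM in control M libraries (-1.4 ± 0.37, adjusted p = 0.33). Mki67 stood at 111, 58.6 and 139 CPM against 196, 152 and 380 CPM (-1.13 ± 0.32, adjusted p = 0.33). Rrm2 stood at 10.1, 10.5 and 15.7 CPM against 32.4, 23.7 and 26.6 CPM (-1.14 ± 0.34, adjusted p = 0.33). None of these 3 genes overlapped between the groups, and replicate 2 was the lowest library for Bub1 and Mki67. Rrm1, the large subunit of the same reductase, stood at 31.2, 21.9 and 37.2 CPM against 44.7, 66.1 and 84.1 CPM (-1.0 ± 0.29, adjusted p = 0.33). Mcm2 overlapped, at 31.7, 22.1 and 27 CPM against 27.8, 49.4 and 56.5 CPM (-0.60, adjusted p = 0.45). Ccne1 did not, at 7.07, 5.17 and 7.99 CPM against 9.13, 11.8 and 14.3 CPM (-0.70, adjusted p = 0.47).

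The remaining named members pointed the same way. Pcna differed by -0.67 (adjusted p = 0.33), Top2a by -1.05 (adjusted p = 0.33), E2f1 by -0.67 (adjusted p = 0.35), Ccnb1 by -0.88 (adjusted p = 0.35), Foxm1 by -0.82 (adjusted p = 0.34) and Cdk1 by -0.50. The spindle checkpoint gene Bub1b (-1.09) and the motor Kif20a (-1.20) each had an adjusted p of 0.33. Tk1 differed least, by -0.08, and Cdt1 by -0.27. Crypt base and stem markers were lower in 8 of 10 genes in these libraries (median -0.29, summed 365 to 521 CPM against 356 to 1140 CPM). Epithelium markers were higher in 9 of 10 (median 0.35). Hepatocyte markers were lower in 6 of 8 tested (median -1.86, 5 without overlap, summed 39.2 to 46.2 CPM against 44.8 to 140 CPM), red cell markers in 5 of 5 (median -1.19), smooth muscle markers in 10 of 10 (median -0.22) and B cell and germinal centre markers in 9 of 10 (median -0.91). Of all genes 7.28% lay lower there without overlap. Medians were 0.18 for mature colonocyte and -0.05 for T cell markers. The hepatocyte genes Serpina1a and Fgb were at 0 in some AOM libraries and no marker of the other lists was, and their part was not tested.

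In AOM F libraries, with 2 black rice libraries, the direction was the opposite, with 14 of 19 replication and all 20 mitosis genes higher (medians 0.19 and 0.32) and no gene past the threshold (0%). That direction rested on the libraries used. With the left-out library in the fit the medians were -0.06 and -0.07. Without black rice F replicate 1, where 1 library stands for the group and is assumed to vary like the others, the medians were -0.48 and -0.22. Mki67 stood at 292 and 222 CPM with black rice and at 118, 145 and 176 CPM in controls (0.82 ± 0.35, adjusted p = 0.98). Mcm2 stood at 62.4 and 24.1 CPM against 50, 33.6 and 29.3 CPM (0.20), so its black rice values lay on both sides of all controls. Most members overlapped between these groups. Bub1 (0.68) and Cenpe (0.49) did not, like Mki67, but 8.38% of all genes also lay higher without overlap, so this does not set the members apart. Cdc6 (0.52) and Rrm2 (0.49) led the replication genes. B cell and germinal centre markers had a median of -2.09, T cell markers of -1.09 and crypt markers of 0.13 in these libraries. Red cell markers were lower in 5 of 5 genes, all without overlap (median -1.25), where 11.1% of all genes lay lower without overlap. The part of these lists was not tested.

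The F difference minus the M difference was above 0 in all 39 AOM members, with medians of 0.87 and 0.96 where the median of all genes was 0.08, and no gene passed in edgeR (0%). Unadjusted p under 0.05 on the higher side held for 7 replication and 9 mitosis genes, against 7.44% of all genes. Bub1 (2.08 ± 0.54), Mki67 (1.95 ± 0.48), Rrm2 (1.62) and Cdc6 (1.56) each had an adjusted p of 0.31. DESeq2 called 2 members, Bub1 at 2.05 (adjusted p = 0.041) and Mki67 at 1.92 (adjusted p = 0.037), where the alternatives reached an adjusted p of 0.81 in both. The fit with the replicate number as a block called Mki67 (2.08, adjusted p = 0.049) and 203 genes in all. Without black rice F replicate 1 the medians were 0.26 and 0.36. With both codes together, 38 of 39 members lay lower, with medians of -0.29 and -0.22, and 0% of genes were called. Without black rice F replicate 2 they were -0.06 and -0.04, and without replicate 1 -0.61 and -0.47. The leading members there were Pcna (-0.35), the helicase subunit Mcm5 (-0.43), Bub1b (-0.35) and Top2a (-0.36), with an adjusted p of 1.

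The AOM libraries with the most crypt marker RNA held the highest level of most members. The crypt list of 10 markers had its highest mean log2(CPM + 0.1), 6.34 and 6.03, in control M replicate 3 and black rice F replicate 1, the libraries that held the highest level of 36 of 39 members between them. The mature colonocyte markers were at their lowest there, 6.98 and 7.15. In the Apc set the order was looser. Control F replicate 2 ranked 1 in crypt markers, 2 in replication genes and 7 in mitosis genes. WT F replicate 2, highest in 27 of 39 members, ranked 3 in crypt markers. In the third set control replicate 4 ranked 1 in crypt markers and in mitosis genes, and 2 in replication genes. What the crypt markers contribute to the differences was not tested.

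**Figure D5:**
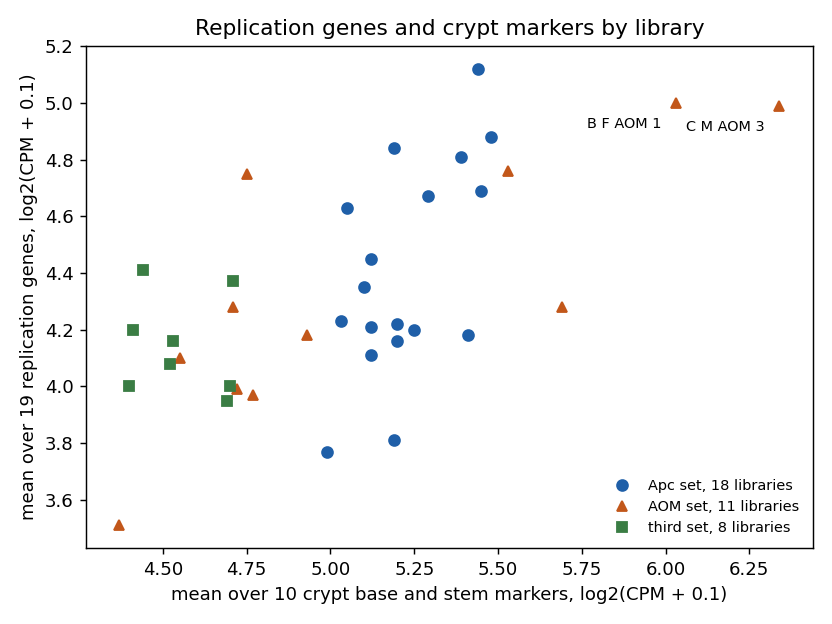
Mean log2(CPM + 0.1) of the crypt base and stem markers (x axis) against the mean of the replication genes (y axis) in each library used, with 1 symbol per set, as a description. In the AOM set control M replicate 3 and black rice F replicate 1 lie at the upper right, at crypt means of 6.34 and 6.03.

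In the third set differences were small. Of the replication genes 15 of 19 lay lower with black rice (median -0.16), of the mitosis genes 11 of 20 (median -0.01), while 51.3% of all genes lay higher and no gene passed (0% of 20831). Mcm2 stood at 23.3, 20.1, 22.7 and 18.9 CPM with black rice and at 28.6, 25.9, 21.1 and 27.2 CPM in controls (-0.33 ± 0.14, adjusted p = 0.62). It had the smallest p, yet its groups overlapped. Mki67 stood at 201, 216, 206 and 153 CPM against 168, 102, 158 and 216 CPM (0.23, adjusted p = 0.81). Cdt1 differed by -0.29 (adjusted p = 0.64), Mybl2 by -0.26 (adjusted p = 0.76), the chromatin factor Uhrf1 by -0.38, Rrm2 by -0.12 and Ccnb1 by 0.11. E2f1 averaged 4.31 ± 0.289 CPM (SD, n = 4) with black rice and 5.14 ± 1.04 CPM in controls (-0.31), and Pcna 59.8 ± 5.14 and 57.1 ± 14.7 CPM. Ccne1 averaged 8.25 ± 0.565 and 8.09 ± 1.16 CPM, and Top2a 98.9 ± 17.8 and 88.4 ± 26.3 CPM. For Cdk1 the means were 20.5 ± 1.54 and 19.9 ± 5.66 CPM, and for Foxm1 17 ± 1.63 and 17.2 ± 4.4 CPM. In all 6 genes the SD was smaller in the black rice group than in the controls, while for Uhrf1 it was nearly equal (6.6 and 6.53 CPM). The genes share the same libraries. Control replicate 2 was lowest in 25 of 39 members, and control replicates 1 and 4 were highest in 19 and 16. The share of all genes with a smaller SD was not counted, and a difference in spread was not tested. Epithelium markers were lower in 10 of 10 genes with black rice (median -0.29), and B cell and germinal centre markers had a median of 0.68. Red cell markers were higher in 5 of 5 (median 0.46), and the part of these lists was not tested. With the epithelium level as a covariate the medians were 0.05 and 0.39. That level, as mean log2(CPM + 0.1), was 9.89 to 10.02 in black rice and 10.16 to 10.24 in control libraries. The arms did not overlap in it, so this fit cannot well separate the covariate from the diet.

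Between the codes themselves, averaged over the arms, no member passed. In the Apc set the F minus M medians were 0.09 for replication and 0.04 for mitosis genes, and 0 members were among the 16 genes called (0.0740%). Rrm2 (0.34), Pole (0.26), Plk1 (-0.27, adjusted p = 0.34) and Mki67 (0.39) were the leading members. Without WT F replicate 2 these medians were -0.04 and -0.14. In the AOM set the medians were 0.13 and 0.27, with 8 genes called (0.0365%), none a member. Leaving out 1 library at a time, they ran from -0.19 to 0.37 and from 0.04 to 0.45. Bub1 (0.61, adjusted p = 0.58), Ccnb1 (0.50), Rrm1 (0.25) and Tyms (0.23) led there.

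Other genes of the cycle were read from lists of 46 replication and 58 mitosis genes, 8 drivers of G1 and 21 brakes (20 of them tested in the Apc set), which share no gene with the 39. In Apc F libraries 43 of 46 other replication genes and 46 of 58 other mitosis genes lay lower with black rice, with medians of -0.38 and -0.31, and 0 passed. In Apc M libraries 41 of 46 and 54 of 58 lay higher, with medians of 0.38 and 0.41. In AOM M libraries 40 of 46 and 56 of 58 lay lower, with medians of -0.65 and -0.78. Control against WT in M libraries had 43 of 46 other replication genes lower (median -0.36), 18 of them without overlap where 2.46% of all genes were, and a median of -0.04 for the other mitosis genes.

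G1 drivers and brakes, which act around the decision to divide, had medians nearer 0 in these comparisons. The G1 drivers had medians of -0.19 in Apc F, -0.01 in Apc M and -0.40 in AOM M, and the brakes of -0.05, -0.11 and -0.03. The gene of smallest p in each list did not pass. In Apc F these were E2f2, an S phase activator (-1.08, adjusted p = 0.39), the centromere gene Cenpm (-0.98, adjusted p = 0.42), the cyclin Ccnd3 (-0.32, adjusted p = 0.44) and the repressor E2f4 (-0.42, adjusted p = 0.32). In Apc M they were Timeless, of the replication fork (0.77, adjusted p = 0.40), the phosphatase Cdc25b (0.57, adjusted p = 0.58), the growth-promoting transcription factor Myc (-0.52, adjusted p = 0.44) and the CDK inhibitor Cdkn2b (-0.97, adjusted p = 0.39). Cdkn2b ranged from 17.2 to 27.2 CPM with black rice and from 40.6 to 45.1 CPM in controls of that comparison. In AOM M it lay the other way, at 42.5 to 57.2 CPM with black rice and 16.8 to 26.6 CPM in controls (1.18, adjusted p = 0.33).

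The others of smallest p in AOM M were the ubiquitin ligase adaptor Dtl (-1.44), the condensin subunit Ncapg2 (-1.87) and the cyclin Ccnd1 (-0.94), each with an adjusted p of 0.33. DESeq2 called Dtl (adjusted p = 0.0012), Ncapg2 (adjusted p = 0.0061) and Cdkn2b (adjusted p = 0.017), while the alternatives reached 0.95 for each. Dtl ranged from 2.69 to 4.37 CPM with black rice and from 7.26 to 15.0 CPM in controls. In the Apc set with both codes together, the tumour suppressor Trp53, among the brakes, had -0.33 ± 0.08 (adjusted p = 0.22), at 39.6 to 45.3 CPM with black rice and 49.7 to 59.1 CPM in controls. These ranges did not overlap, but Trp53 was picked for the smallest p of its list. The share of all genes separated in this way over both codes was not counted. DESeq2 called Trp53 (adjusted p = 0.024), with alternatives of up to 0.85. E2f2 (-0.53), Pttg1, which holds back chromosome separation (-0.25), and Myc (-0.28) led the other lists of that comparison. In the third set they were E2f2 (-0.59, adjusted p = 0.50), the contractile ring gene Anln (0.31, adjusted p = 0.64), Myc (-0.37, adjusted p = 0.59) and the anaphase activator Fzr1 (-0.33, adjusted p = 0.50; 0.0037 in DESeq2, with alternatives of up to 1).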

How the data were processed

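Per the labels' protocols, poly(A) RNA was selected with oligo(dT), amplified and sequenced on DNBSEQ. The authors deposited raw counts, whole numbers per gene without normalization, in 3 tables. Per the file headers, featureCounts 2.0.1 counted read pairs over exons for the AOM table and the third table, using GRCm39 with Ensembl 104 genes. No command stands in the header of the Apc table. HISAT2, fastp and SAMtools are named in the submitters' processing notes, with versions not given. Library columns of the Apc table are named Colon.

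Each table was fitted separately in edgeR 4.0.16 (R 4.3.3) with filterByExpr by group, TMM factors, group means and the quasi-likelihood F test, two-sided. Adjusted p is Benjamini-Hochberg over all genes tested, with a threshold of 0.05. CPM is the count divided by the library total, and class means use log2(CPM + 0.1). For both codes together, the F difference and the M difference were averaged. Per-length levels use GENCODE exon lengths of GRCm38, joined over all annotated transcripts of a gene. Reads can be PCR copies, so they do not count molecules.

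Members and lists were chosen with earlier results of these data known. The rule for names took 10 members in every set and, where none passed, the 2 replication and 2 mitosis members with the smallest p in a comparison. It also took the gene of smallest p of each other list, given here for the diet comparisons of the Apc set, of AOM M and of the set without codes. Members named beyond this rule were chosen after their values were seen. Alternatives were DESeq2 1.42.0, limma-voom 3.58.1 with weights for library quality, RLE scaling, no filter or a filter at 30 counts, the compared groups alone, a replicate block, smooth muscle and epithelium covariates, and leaving out each library. The fit was tested on simulated data. In the AOM set, replicate 3 of the black rice F group was left out for its hepatocyte RNA and low depth, and an alternative keeps it. None of the library pairs held identical values.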

Additional observations from a re-analysis of the deposited data

Results flagged for a closer look

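In groups of 4 libraries, 82 groupings of member levels were tested for a value far from the others, and chance would mark about 1 in 20. In the third set black rice replicate 1 stood apart for the helicase subunit Mcm7, at 35.3 CPM where the other black rice libraries lay between 29 and 29.3 CPM (gap over range 0.941, above Dixon's 95% critical value). The same library stood apart for Cdc20, at 19.5 CPM against 16.1 to 16.6 CPM (0.862). No other grouping was marked, so the share marked was below 1 in 20. Replicate 3 of the black rice F group in the AOM set, which no comparison used, took 23.5% of its reads from hepatocyte genes, against at most 0.019% in the other libraries.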

How the results depend on the processing

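Over 206 results and 3642 alternative values, 3498 stayed the same, 97 moved, 9 passed the threshold under an alternative and 38 differences of single genes took the other sign. A single gene was the same if it kept its sign and its side of the threshold. A class median moved if it shifted by at least the spread between libraries. A count of genes past the threshold moved if it changed beyond a set ratio, or to or from 0. Most of the 97 were such counts over all genes, not differences. Class medians, which had no test, took the other sign in 51 of 624 alternative values, over 18 of 34 medians, and 45 of these 51 moved by less than that spread. The medians of the Apc diet comparisons in F, in M and of their difference, and of the AOM diet comparisons with both codes, in M and of the difference, kept their sign in every alternative run. Of 312 counts of members past the threshold under an alternative, 3 were above 0. DESeq2 called 1 member in AOM M and 2 in the AOM F minus M difference, where a fit with the replicate block called 1, Mki67 at 2.08 (adjusted p = 0.049). The cause was not tested here or for any value below.

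Over all genes DESeq2 called far more than edgeR: 202 in the Apc diet comparison, 201 in F, 151 in M and 132 in their difference, 24, 2 and 18 for control against WT (both codes, F, M), 72, 42 and 27 for black rice against WT, 528 for Apc F minus M, 13, 3, 255 and 175 for the AOM diet comparisons (both codes, F, M, difference), 74 for AOM F minus M and 136 in the third set. Limma-voom called 17, 103, 10 and 19 in the Apc diet comparisons, 128 for Apc F minus M and 2 in the third set. With the replicate block, the AOM difference had 203 calls, Apc M 0, black rice against WT 0 with both codes and in M, and Apc F minus M 10.

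Same-numbered libraries did not all deviate together. The correlations of their deviations ran from -0.56 to 0.47 over 45 pairs in the Apc set (14 over 0.1, 8 of 18 libraries best with their own number), from -0.31 to 0.39 over 15 pairs in the AOM set (8 over 0.1, 8 of 11, median 0.11 against -0.04 for other pairs, a hint of shared deviation in that set) and from -0.64 to 0.49 over 4 pairs in the third set (1 over 0.1, 2 of 8). Since no set had every pair over 0.1, the replicate number was not taken as a pairing. A true pairing could fail that strict rule, so it does not settle the question for the AOM set. Beyond the values above, the replicate block changed no call of a member.

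Leaving out 1 library at a time gave these ranges. In the Apc diet comparison Mki67 ran from -0.06 to 0.38. In Apc F, Ccnb1 ran from -0.81 to 0.13, Ccne2 from -0.19 to 0.38, Cenpe from -0.20 to 0.73, Foxm1 from -0.93 to 0.01, Mki67 from -0.51 to 0.36 and Top2a from -0.57 to 0.37. In the Apc F minus M difference Cenpe ran from -0.44 to 0.49 and the replication median from -1.35 to -0.79. For control against WT, the replication and mitosis medians ran from -0.25 to 0.03 and from -0.02 to 0.33 with both codes and from -0.02 to 0.50 and from -0.12 to 0.75 in F, and Ccnb1 of control against WT in M from -0.32 to 0.40. For black rice against WT they ran from -0.34 to 0.02 and from -0.11 to 0.43 with both codes, from -0.70 to 0.01 and from -0.68 to 0.40 in F, and for replication from -0.11 to 0.25 in M. Against WT in black rice F, Birc5 ran from -1.01 to 0.04 and Ccnb2 from -0.89 to 0.14. In AOM F the medians ran from -0.48 to 0.69 for replication and from -0.22 to 0.64 for mitosis genes, Cdc6 from -0.20 to 0.99, Mcm2 from -0.68 to 0.73 and Rrm2 from -0.37 to 1.01. In AOM M Tk1 ran from -0.24 to 0.04. In the AOM difference the medians ran from 0.26 to 1.33 and from 0.36 to 1.32, and for AOM F minus M from -0.19 to 0.37 for replication and from -0.08 to 0.47 for Rrm1. In the third set Ccnb1 ran from -0.04 to 0.24 and Rrm2 from -0.25 to 0.07.

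Without both libraries of highest crypt markers in the AOM set, chosen after the data were seen, the F medians were -0.48 and -0.22, Cdc6 -0.20, Mcm2 -0.68 and Rrm2 -0.37, the medians of the difference 0.20 and 0.31, and Rrm1 of F minus M -0.03. With all 12 AOM libraries the F medians were -0.06 and -0.07 and Mcm2 in F was -0.05. With the smooth muscle covariate Mki67 in Apc F was -0.16, and with the epithelium covariate Top2a was 0.07. In the third set the epithelium covariate gave 0.05 and 0.39 for the medians, 0.03 for E2f2, 0.40 for Mybl2 and 0.47 for Rrm2. Its level did not overlap between the arms of that set, so that fit cannot well separate it from the diet. The lowest count of a member in any library used was 63 reads.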

Other observations

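In the black rice F library of the AOM set that was left out, the replication genes had a mean log2(CPM + 0.1) of 2.17 and the mitosis genes of 1.84, below every other library. Its balance of replication minus mitosis genes was 0.34. Mcm2 stood there at 9.86 CPM, Rrm2 at 12.1 CPM and Mki67 at 58.8 CPM, and the epithelium markers summed to 562 CPM.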
